A study of Mus musculus and Mus musculus
Rattus norvegicus with 30 samples.

Results

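Sites bound by the transcription factor Cdx2 were compared between mouse embryonic stem cells (mESCs) and RMES cells, on the mouse genome (build mm10). RMES cells are hybrid stem cells made by fusing mouse haploid and rat haploid embryonic stem cells, so that each nucleus holds a mouse and a rat chromosome set. Of the 86450 mESC peaks and 69123 RMES peaks on chromosomes 1 to 19, those that shared at least 1 bp and were each other's nearest by centre were taken as pairs. This gave 55327 paired peaks, from 166315 peaks on all chromosomes in the mESC table and the mouse-genome table of RMES cells. Peaks that overlapped no peak of the other table are called peaks without a partner. The study asked whether differences in Cdx2 regulation between mouse and rat lie in the protein or in the genome, and its 30 libraries cover RNA-seq, ATAC-seq and ChIP-seq.

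Both ChIP-seq groups carried a Tet-On transgene, delivered by lentivirus, that encodes Flag-tagged mouse Cdx2 (mCdx2-OE) or rat Cdx2 (rCdx2-OE) and is switched on with doxycycline (DOX), and chromatin was pulled down with an antibody against Flag. Each group held 2 libraries, labelled mCDX2 OE and rCDX2 OE, and these served as replicates. The column names do not spell out which library carried which construct, so the libraries are called the first and the second of each group. No library of cells without Flag-tagged Cdx2 and no input library was used here, and nothing states that libraries came from separate cultures, so p values measure only the spread between these libraries. Differences between mESCs and RMES cells include those between stable lines, in Cdx2 level, in the 2 peak sets and in the rule that assigned RMES reads to the mouse or rat genome, and these cannot be told apart. Animals, strains and ages are not given for the cells in the sources used here.

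Cdx2 is a homeobox factor that binds AT-rich DNA. In the early embryo it is required for the trophectoderm, the outer layer that gives rise to the placenta, and later it patterns the posterior body through the Hox clusters and keeps the identity of the intestinal epithelium. Forced Cdx2 in embryonic stem cells is known to drive them towards trophoblast stem cells.

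Windows of 300 bp at the centre of the mESC peak are given for 6 paired peaks on which the results turn. The sequences are from GRCm38.p6 (the assembly of mm10), plus strand, and capitals mark each match to the CDX motif TTTATNG on either strand. The strongest paired peak of the Hoxa cluster, in an intron beside Hoxa5 (chr6:52200946-52201245), held a match on each strand. The peak near Evx1 (chr6:52321469-52321768), the peak near Dppa3 (chr6:122655283-122655582) and the peak near Cryba4 without a match (chr5:112144180-112144479) were all lower in RMES cells. The peaks near Col1a2 (chr6:4434245-4434544) and Gm11096 (chr17:81283126-81283425) were higher in RMES cells and held no match.
Hoxa5: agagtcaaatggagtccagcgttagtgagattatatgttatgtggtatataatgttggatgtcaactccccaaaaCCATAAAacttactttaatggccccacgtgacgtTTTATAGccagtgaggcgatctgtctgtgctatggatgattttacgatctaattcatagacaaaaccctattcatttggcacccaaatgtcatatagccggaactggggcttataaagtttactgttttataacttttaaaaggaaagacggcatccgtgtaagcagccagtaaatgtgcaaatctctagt
Evx1: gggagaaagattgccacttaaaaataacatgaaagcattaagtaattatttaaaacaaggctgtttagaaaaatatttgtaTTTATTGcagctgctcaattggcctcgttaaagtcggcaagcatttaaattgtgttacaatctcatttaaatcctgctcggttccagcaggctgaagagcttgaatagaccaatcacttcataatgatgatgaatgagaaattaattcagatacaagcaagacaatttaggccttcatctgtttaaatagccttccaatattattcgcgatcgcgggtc
Dppa3: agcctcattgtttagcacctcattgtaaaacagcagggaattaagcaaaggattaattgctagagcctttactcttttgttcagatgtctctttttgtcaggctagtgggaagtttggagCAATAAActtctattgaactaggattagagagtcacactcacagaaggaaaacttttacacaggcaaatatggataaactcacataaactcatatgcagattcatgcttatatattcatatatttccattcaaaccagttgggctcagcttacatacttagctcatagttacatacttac
Cryba4: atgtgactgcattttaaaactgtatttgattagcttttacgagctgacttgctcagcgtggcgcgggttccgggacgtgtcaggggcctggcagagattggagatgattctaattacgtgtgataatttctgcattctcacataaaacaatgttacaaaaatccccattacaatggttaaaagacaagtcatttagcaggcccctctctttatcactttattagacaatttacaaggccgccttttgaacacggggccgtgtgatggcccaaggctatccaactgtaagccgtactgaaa
Col1a2: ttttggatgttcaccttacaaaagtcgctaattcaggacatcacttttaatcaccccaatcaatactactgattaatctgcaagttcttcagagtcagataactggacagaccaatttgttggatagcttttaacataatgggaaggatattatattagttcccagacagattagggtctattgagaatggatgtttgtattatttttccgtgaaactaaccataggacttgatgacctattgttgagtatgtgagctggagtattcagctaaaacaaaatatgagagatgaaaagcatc
Gm11096: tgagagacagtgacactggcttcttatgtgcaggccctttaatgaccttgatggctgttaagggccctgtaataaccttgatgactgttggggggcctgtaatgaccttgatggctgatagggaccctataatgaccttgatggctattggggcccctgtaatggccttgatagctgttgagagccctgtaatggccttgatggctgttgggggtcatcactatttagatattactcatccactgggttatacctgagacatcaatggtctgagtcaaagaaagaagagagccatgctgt
The motif was common to sites of every kind. It stood in 56.1% of windows of all paired peaks, in 48.8% of those higher in RMES cells, in 58.0% of those lower in RMES cells, and in 18.2% of 399305 windows of the same length taken along the chromosomes. Windows without it hold no such letters, which says nothing about whether Cdx2 touches them.

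Counts of reads in peaks of chromosomes 1 to 19 were 5885060 and 5259222 in the mESC libraries, and 4011430 and 3114001 in the RMES libraries. Paired peaks took 78.6% to 79.6% of these reads in mESCs and 88.5% to 88.6% in RMES cells. On log2 scaled counts, where each library is scaled to the same effective size, Pearson's r over the paired peaks was 0.947 between the mESC libraries, 0.891 between the RMES libraries and 0.745 to 0.765 across the groups, as a description of sites that share libraries. Cdx2 RNA was not equal between the cells. Over both genomes it reached 70.5 to 134 CPM (reads of a gene scaled to library size) in 4 induced mESC libraries, and 592 and 474 in the induced RMES libraries. Reads of mESCs were counted on the mouse genome alone, which bears on the level of the rat construct there. In the RMES libraries labelled WT it stood at 247 and 241, against 1.28 and 1.12 in WT mESCs, so these 2 libraries were not of cells without Cdx2 RNA. The label WT does not say whether the cells expressed Cdx2, and the source of this RNA was not tested. The pluripotency markers Pou5f1, Sox2, Nanog, Esrrb, Zfp42, Dppa3 and Utf1 were all present in every group. Their summed level was 2108 to 2388 CPM in induced mESCs and 1560 to 1611 in induced RMES cells, beside 3626 to 3635 and 4091 to 4117 in the libraries labelled WT. The members did not move alike. Mean Nanog was 846 CPM in induced against 552 in WT mESCs, but 465 against 624 in RMES cells. Dppa3 was higher in induced cells of both (63.3 against 45.0, and 29.3 against 9.41), and the others were lower. Trophoblast markers (Gata3, Eomes, Elf5, Hand1, Krt7) summed to 65.5 to 89.4 CPM in induced mESCs and 65.1 to 73.7 in induced RMES cells, and to 7.59 to 11.8 in the libraries labelled WT. Krt7 made up most of the induced sums, at a mean of 54.6 CPM in mESCs and 45.2 in RMES cells. Eomes, unlike the others, was lower in induced cells than in those labelled WT (4.36 against 8.36 in mESCs, 3.79 against 5.99 in RMES cells). Primitive endoderm markers (Gata4, Gata6, Sox17, Pdgfra) summed to 12.3 to 13.7 and 9.66 to 10.7 CPM in induced mESCs and RMES cells, and to 2.76 to 6.01 in libraries labelled WT. In mESCs each member was higher in induced cells. In RMES cells Gata4 and Pdgfra were higher (3.82 against 0.389, and 3.76 against 0.469), but Gata6 and Sox17 were lower (2.32 against 3.96, and 0.268 against 0.413). Of 8 fibroblast markers, Dcn and Lum were at 0 in all induced libraries of both cells, and the list summed to 16.6 to 20.6 and 18.4 to 22.97 CPM, against 23.9 to 40.0 in libraries labelled WT. Pdgfrb made up most of the induced sums and was higher in induced cells (14.7 against 4.37 CPM in mESCs, 11.6 against 1.69 in RMES cells). Thy1 and Postn were also higher in induced RMES cells (2.68 against 1.13, and 1.04 against 0.663). The collagen genes Col1a1, Col1a2 and Col3a1 were lower in induced cells of both. In such bulk samples, fewer cells of a type and less RNA per cell cannot be told apart, and the part of these differences in binding was not tested.

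Most peaks had a counterpart in the other cells, and those that did not were weak. Of mESC peaks, 31002 of 86450 had no partner in RMES cells (35.9%, 95% Wilson interval 35.5% to 36.2%), and of RMES peaks, 13355 of 69123 had none in mESCs (19.3%, 19.03% to 19.62%). These intervals cover counting error only, since peaks were called once per cell type on merged reads. A peak without a partner held a median of 63 reads in mESCs and 51 in RMES cells, against 114 and 88 in paired peaks, and was shorter (median 308 against 421 bp in mESCs, 262 against 364 bp in RMES cells). In mESCs, the share without a partner fell from 67.4% in the decile of peaks with the fewest reads (28 to 46) to 1.86% in the decile with the most (253 or more). In RMES cells it fell from 53.1% (28 to 43 reads) to 0.55% (193 or more). Whether such weak sites held reads short of the calling threshold in the other cells was not tested. The shares depended on how peaks were taken. Among the 40000 peaks with the most reads in each table, 27.7% of mESC and 27.2% of RMES peaks lacked a partner. Among peaks with at least 50 scaled reads (28751 in mESCs, 34339 in RMES cells) the shares were 22.2% and 34.3%. Both settings cut both tables, so a partner below the cut did not count and the shares follow the set sizes. They therefore cannot decide which cells have the larger share. With the 40000 strongest set against all peaks of the other table, a setting chosen after seeing the data, 15.99% and 7.08% lacked a partner.

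**Figure D1:**
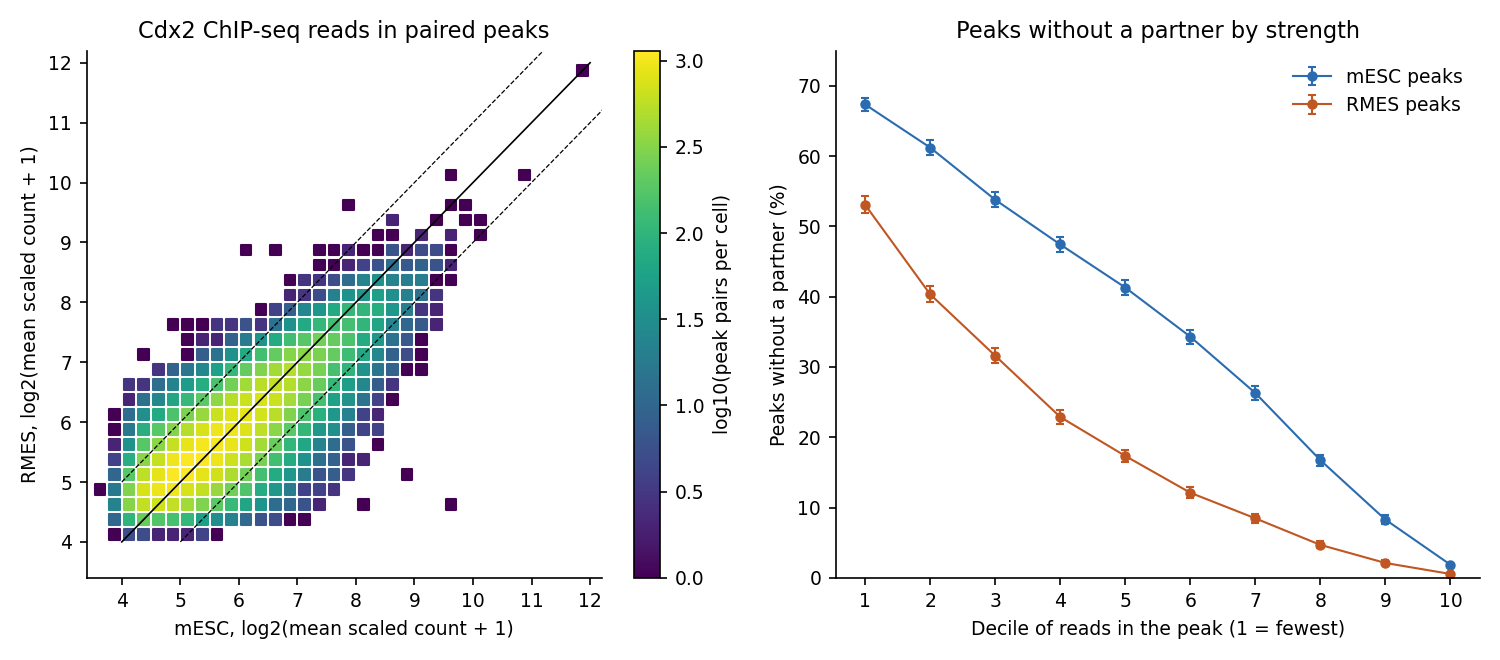
Left, mean scaled count of each of 55327 paired peaks in mESCs (x axis) and RMES cells (y axis), as log2(count + 1), with colour for the number of pairs per cell on a log10 scale, a solid line for equality and dashed lines for a 2-fold difference. Right, share of peaks without a partner (%) by decile of reads in the peak, with 95% Wilson intervals. The share falls from 67.4% to 1.86% in mESCs and from 53.1% to 0.55% in RMES cells.

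A few strong peaks still had no counterpart. In mESCs, the 3 with the most reads lay in an intron 39.2 kb from the start of Sfi1 (chr11:3153654-3154908, 946 and 872 reads), 125.9 kb from Sp8 (chr12:118720110-118720774, 547 and 472 reads) and in an intron 24.9 kb from the start of Ctnna1 (chr18:35143186-35144289, 359 and 326 reads). Sp8 encodes a zinc finger factor of limb and brain development, and Ctnna1 encodes alpha-catenin, which links cadherins to actin. All 3 lay in mESC ATAC peaks, the Sp8 and Ctnna1 sites in peaks that opened with mCdx2 and the Sfi1 site in one that closed. Repeats made up 51% of the central 300-bp window at Sfi1, 13.3% at Sp8 and 17% at Ctnna1. In RMES cells, the 3 were intergenic, 1368 kb from Cntnap5a (chr1:114316499-114317483, 362 and 231 reads), 640.9 kb from Gramd3 (chr18:55759135-55759828, 166 and 168 reads) and 157 kb from 2410141K09Rik (chr13:66597703-66599035, 199 and 131 reads). None of these 3 overlapped an mESC ATAC peak, and repeats made up 81.3% of the window of the third. None of the 6 held a CDX match in its central window.

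Among paired peaks, Cdx2 occupancy differed at a minority of sites, in both directions. With edgeR's quasi-likelihood test, 2445 of 55327 pairs were higher in RMES cells (4.42%) and 3078 were lower (5.56%) at an adjusted p under 0.05 and a fold change over 2. The median log2 ratio of RMES over mESCs was 0.02, and 90% of the pairs lay between -1.04 and 0.96. Pairs just inside and just outside the 2-fold limit had log2 ratios of 1.00005 and 0.999913, and of -1.00015 and -0.999988, so the classes below are cut from a continuous range. Strong sites leaned towards mESCs: in the quartile of pairs with the highest mean count the median was -0.20, with 253 higher and 1372 lower, and in the lowest quartile it was 0.22, with 566 higher and 73 lower. Peaks of both cells began at 28 reads, but effective library sizes were 4504957 and 3972427 in mESCs against 3667208 and 2891174 in RMES cells. The same fewest reads thus stood for a higher scaled count in RMES cells. The part of this floor in the lean of weak sites was not tested. The split of calls depended on scaling and on peak length. With library sizes from all peaks and no TMM normalisation, the median of all pairs moved to 0.30 and calls to 5816 higher and 1437 lower, and with the length of each table's peak as an offset they were 1014 higher and 596 lower around a median of 0.20. Ratios below are therefore to be read against the median of all pairs under the same scaling.

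The largest falls were deep, and values are given for 4 sites among them. The peak 19.3 kb from Dynlt1f, a dynein light chain gene (chr17:6636202-6636994), had scaled counts of 419 and 453 in mESCs and 31.8 and 31.2 in RMES cells, a log2 ratio of -3.78 ± 0.17 (SE, edgeR adjusted p = 5.45e-17), and its window was repeat sequence throughout. A peak in an intron 3.58 kb from the start of Dnah8, which encodes a dynein heavy chain (chr17:30620523-30621025), fell from 275 and 274 to 23.6 and 26.003 (-3.47 ± 0.19, edgeR adjusted p = 1.71e-14). In both of these the RMES libraries sat far below both mESC libraries, and at 65% of all pairs the groups did not overlap, with both RMES libraries above the mESC libraries at 32.4% and both below at 32.6%. The peak 29.0 kb from Dppa3 (chr6:122655077-122655787), a maternal factor that marks naive stem cells, had 222 and 269 in mESCs and 37.9 and 26.003 in RMES cells (-2.91 ± 0.19, edgeR adjusted p = 1.26e-12). The peak 108.2 kb from Cryba4, a lens crystallin gene (chr5:112144092-112144566), had 194 and 188 against 24.6 and 27.3 (-2.88 ± 0.20, edgeR adjusted p = 3.78e-12). These peaks were shorter in the RMES table (296 against 793 bp at Dynlt1f, 255 against 503 bp at Dnah8, 276 against 711 bp at Dppa3, 271 against 475 bp at Cryba4). With peak length as an offset all 4 still passed, at -2.37, -2.49, -1.54 and -2.07. Of these 4 sites, 3 lay in ATAC peaks that opened with mCdx2 in mESCs.

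The largest rises were smaller and mostly outside mESC ATAC peaks. A site in an intron, 21.7 kb from the start of Zfp984, a zinc finger gene (chr4:147787929-147788153), had scaled counts of 16.7 and 25.5 in mESCs and 159 and 140 in RMES cells (2.84 ± 0.23, edgeR adjusted p = 5.01e-11). A site 12.5 kb from Gm94 (chr18:43805307-43805498) rose from 15.9 and 17.03 to 113 and 96.2 (2.67 ± 0.25, edgeR adjusted p = 1.27e-09). A site 70.4 kb from Col1a2, a collagen gene (chr6:4434276-4434512), rose from 34.2 and 23.7 to 207 and 161 (2.66 ± 0.21, edgeR adjusted p = 3.23e-11). These peaks were also much longer in the RMES table (895 against 225 bp at Zfp984, 518 against 192 bp at Gm94, 1004 against 237 bp at Col1a2). With peak length as an offset the rises near Zfp984 and Col1a2 no longer passed, at 0.85 and 0.58, and that near Gm94 was 1.24. The site 158 kb from Gm11096 (chr17:81283173-81283377) had 17.5 and 16.1 against 105 and 105 (2.63 ± 0.25, edgeR adjusted p = 1.26e-09). The site 13.1 kb from Ifi203, an interferon-inducible gene (chr1:173955402-173956089), had 79.3 and 68.1 against 406 and 456 (2.54 ± 0.14, edgeR adjusted p = 3.46e-14). It was the only one of the 5 in an ATAC peak, one that opened with mCdx2, and 67.0% of its window was repeat sequence.

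The Hox clusters, which set position along the body axis and are known targets of Cdx factors, had sites called lower in RMES cells and none called higher. Of 37 paired peaks within 30 kb of a start of the 39 Hox genes, 11 were lower in RMES cells and 0 were higher, with a median log2 ratio of -0.68 against 0.02 over all pairs, where 4.42% were higher and 5.56% lower. These sites lay in mESC ATAC peaks more often than pairs at large, at 75% in the Hoxa, 50% in the Hoxb and 58.8% in the Hoxc and Hoxd clusters against 18.95% of all pairs, and among all pairs in opened ATAC peaks 28.9% were lower, with a median of -0.72. Whether Hox sites differ from other sites of the same ATAC class was not tested. The lists were chosen with earlier results of these data known, and neighbouring genes share peaks. With peak length as an offset 6 were lower and 0 higher (median -0.31 against 0.20), and with library size from all peaks 8 were lower and 1 higher (median -0.41 against 0.30). Leaving out 1 library at a time gave 10 to 16 lower and 0 to 1 higher. In the Hoxa cluster, 3 of 12 paired peaks were lower. The strongest, 3.49 kb from the start of Hoxa5, had scaled counts of 442 and 414 in mESCs and 293 and 321 in RMES cells (-0.48 ± 0.11, edgeR adjusted p = 0.0015), all below the mESC values but short of the 2-fold limit. The peak that led Hoxa2, a hindbrain patterning gene, had 186 and 249 against 66.6 and 74.1 (-1.63 ± 0.17, edgeR adjusted p = 1.15e-08) and was past it. That of Hoxa10 had 285 and 290 against 219 and 268 (-0.25), and that of Hoxa13, at the posterior end, 80.1 and 90.8 against 77.9 and 107 (0.10).

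In the Hoxb cluster 2 of 8 paired peaks were lower, and in the Hoxc and Hoxd clusters 6 of 17. The Hoxb4 peak, 1.10 kb from the gene start, had 144 and 212 in mESCs against 58.4 and 71.5 in RMES cells (-1.46 ± 0.19, edgeR adjusted p = 5.74e-07). The Hoxb8 peak at the gene start itself had 280 and 326 against 187 and 143 (-0.87), and that of Hoxb1 45.1 and 48.3 against 35.9 and 42.9 (-0.25). The peak leading Hoxc6 had 349 and 362 against 111 and 114 (-1.66 ± 0.14, edgeR adjusted p = 7.14e-11), and the RMES values were close together and far below those of mESCs. The lowest ratio of a leading peak in these clusters was that of Hoxd13, a gene of digits and hindgut, with 119 and 113 against 29.7 and 24.7 (-2.07 ± 0.23, edgeR adjusted p = 2.07e-08), or -1.10 with peak length as an offset. The highest was that of Hoxd1, with 57.6 and 48.3 against 90.2 and 66.3 (0.57, edgeR adjusted p = 0.0432), within the 2-fold limit. Without a partner were 6 mESC peaks and 1 RMES peak near Hoxa genes, 8 and 0 near Hoxb genes, and 9 and 1 near Hoxc and Hoxd genes. These stand beside 12, 8 and 17 pairs. Of all peaks, 35.9% in mESCs and 19.3% in RMES cells had no partner, and whether the Hox clusters differ in this was not tested.

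**Figure D2:**
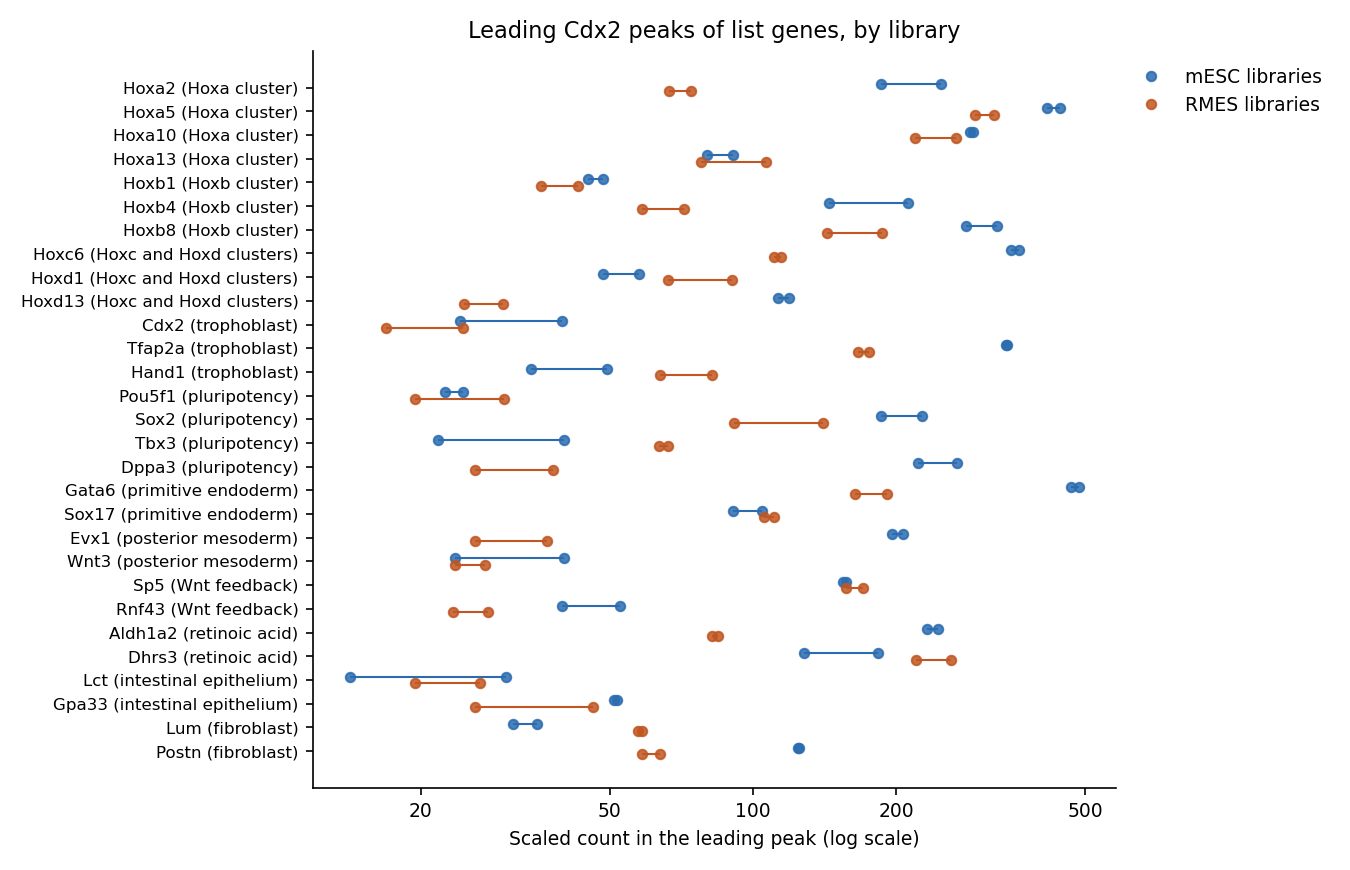
Scaled count (log scale) in the leading paired peak of each gene (the gene's strongest pair within 30 kb of its start), with 2 mESC and 2 RMES libraries as points and a line between libraries of a group, and the list of each gene in brackets. The RMES points lie far to the left of the mESC points at Dppa3, Evx1 and Hoxd13, and overlap them at Pou5f1, Hoxa13 and Lct.

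RNA of the Hoxa genes differed between the cells in one direction in induced libraries and in the other in libraries labelled WT. ChIP-seq was of induced cells only, so binding in cells labelled WT was not measured. In induced cells, the mouse Hoxa genes were lower in RMES cells than in mESCs for 9 of 11 and higher for 0, where 12% of 17912 genes were higher and 9.62% lower. In libraries labelled WT, 10 of 11 were higher in RMES cells and 0 lower, where 12.1% of genes were higher and 19.2% lower. Hoxa5 had 2.25 to 2.55 CPM in 4 induced mESC libraries and 0.350 and 0.209 in the induced RMES libraries (log2 ratio -3.09 ± 0.29, edgeR adjusted p = 3.61e-06), and 0.0868 and 0.0817 against 0.335 and 0.387 in libraries labelled WT (2.07 ± 0.41, edgeR adjusted p = 0.000969). The same 2 RMES libraries held Cdx2 RNA at 241 to 247 CPM. Hoxa10 had 5.62 to 9.04 CPM in induced mESCs and 0.794 and 1.02 in induced RMES cells (-2.99 ± 0.21, edgeR adjusted p = 4.01e-07). For Hoxb, 5 of 9 tested genes were higher and 1 lower in induced RMES cells, and for Hoxc and Hoxd 3 of 17 were higher and 3 lower, so lower binding near these clusters stood beside RNA of both directions. In libraries labelled WT, 7 of 9 Hoxb genes were higher and 1 lower, and 12 of 17 Hoxc and Hoxd genes were higher and 0 lower.

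Sites near genes of the trophoblast list came next. Of 16 paired peaks none passed the 2-fold limit, where 4.42% of all pairs were higher and 5.56% lower, and the median was -0.29. A count of 0 among 16 is near those shares. The lowest ratio was that of Tfap2a, a trophoblast and neural crest factor, with 340 and 342 in mESCs against 175 and 166 in RMES cells (-0.99, edgeR adjusted p = 3.53e-07), just short of the limit, and past it without the first RMES library, at -1.04. The highest was that of Hand1, a factor of trophoblast giant cells, with 49.2 and 34.1 against 82.0 and 63.7 (0.81, edgeR adjusted p = 0.00867), and past it without the first mESC library, at 1.10. The Cdx2 gene itself had a weak paired peak 25.7 kb from its start, with 24.2 and 39.7 against 24.6 and 16.9 (-0.58, edgeR adjusted p = 0.182). Within the same distance of its start, Gata3, a trophectoderm factor, had 1 mESC peak without a partner and no pair, and Ascl2, of the spongiotrophoblast, had no peak of either table within 30 kb of its start. The list had 16 mESC and 2 RMES peaks without a partner beside its 16 pairs, where 35.9% of all mESC and 19.3% of all RMES peaks had none. Its RNA was higher in induced RMES cells for 2 of 18 genes and lower for 0, where 12% of all genes were higher and 9.62% lower. For Hand1, RNA was 0.956 to 1.27 CPM in induced mESCs against 6.04 and 6.13 in induced RMES cells (2.41 ± 0.28, edgeR adjusted p = 2.05e-05). The paired peak 1.81 kb from Cdh2, which encodes N-cadherin, had 176 and 196 in mESCs against 139 and 160 in RMES cells (-0.32, edgeR adjusted p = 0.094).

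Near pluripotency genes, 2 of 19 paired peaks were higher and 2 lower, with a median of -0.60, where 4.42% and 5.56% of all pairs were. Beside the Dppa3 site given above, where Dppa3 RNA was 54.7 to 68.8 CPM in induced mESCs against 30.2 and 28.4 in induced RMES cells (-1.11 ± 0.09, edgeR adjusted p = 1.45e-06), the Sox2 peak 11.6 kb from the gene had 226 and 185 against 140 and 91.0 (-0.81, edgeR adjusted p = 0.000302). Without the first RMES library it passed the limit, at -1.18, and without the second it was -0.56. Of 3 paired peaks near Dppa3, another was called higher in RMES cells. Sox2 lies on chromosome 3, whose peaks as a whole were lower (below). The only paired peak near Pou5f1, which encodes Oct4, was weak, with 22.5 and 24.6 against 19.5 and 29.9 (0.04, edgeR adjusted p = 0.94). Among leading peaks the highest ratio was that of Tbx3, a factor of naive stem cells, with 40.1 and 21.8 against 63.6 and 66.3 (1.05 ± 0.26, edgeR adjusted p = 0.00244). That call was lost without the second mESC library, at 0.69, with peak length as an offset, at 0.85, and among pairs of like length, at 0.98. There were 17 mESC peaks and 0 RMES peaks without a partner near these genes, beside the 19 pairs. Of all peaks, 35.9% in mESCs and 19.3% in RMES cells had none, and whether this list differs was not tested. In induced cells 1 of 16 genes was higher in RMES cells by RNA and 2 were lower, against 12% and 9.62% of all genes.

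Near primitive endoderm genes, 2 of 12 paired peaks were lower and 0 higher (median 0.12), where 5.56% and 4.42% of all pairs were. The peak in an intron of Gata6, a factor that specifies this layer, was among the strongest of any list, with 486 and 467 in mESCs against 192 and 164 in RMES cells (-1.42 ± 0.12, edgeR adjusted p = 2.51e-10), and fell short of the limit with peak length as an offset, at -0.63. Gata6 RNA was 4.99 to 7.499 CPM in induced mESCs against 2.26 and 2.37 (-1.44 ± 0.22, edgeR adjusted p = 0.000146). The Sox17 peak had 104 and 90.8 against 111 and 105 (0.15, edgeR adjusted p = 0.563). By RNA, 3 of 10 genes of the list were lower in induced RMES cells and 0 higher, against 9.62% and 12% of all genes.

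In the other lists the numbers of called sites were small, and they stand beside 4.42% higher and 5.56% lower among all pairs, and 12% and 9.62% for RNA. Of 9 paired peaks near posterior mesoderm genes, 1 was lower (median -0.50): that of Evx1, a homeobox gene beside the Hoxa cluster, with 207 and 196 against 36.9 and 26.003 (-2.65 ± 0.20, edgeR adjusted p = 1.05e-11), or -1.33 with peak length as an offset. The highest of that list was Wnt3, at -0.35 (edgeR adjusted p = 0.417). By RNA 3 of 12 of its genes were higher and 2 lower in induced RMES cells. Of 6 paired peaks near Wnt feedback genes none was called (median -0.11), from Sp5 with 154 and 157 against 157 and 170 (0.07, edgeR adjusted p = 0.758) to Rnf43 with 52.6 and 39.7 against 27.7 and 23.4 (-0.85, edgeR adjusted p = 0.0208), and by RNA 3 of 10 genes were higher and 1 lower. Of 10 near retinoic acid genes 1 was lower (median 0.35), that in an intron of Aldh1a2, which makes retinoic acid, with 245 and 233 against 82.0 and 84.5 (-1.52 ± 0.15, edgeR adjusted p = 3.72e-09). With peak length as an offset it was -0.29 and not called. The peak of Dhrs3, which limits retinoic acid, had 184 and 128 against 261 and 220 (0.63, edgeR adjusted p = 0.00182), and by RNA 5 of 11 genes were lower and 0 higher. Of 15 near intestinal genes none was called (median -0.08), from Lct at 0.10 (edgeR adjusted p = 0.855) to Gpa33 at -0.47 (edgeR adjusted p = 0.173), and by RNA 4 of 9 were higher and 3 lower. Near fibroblast genes, which mark another cell type, 1 of 9 was higher and 1 lower (median -0.30), with leading peaks from Lum at 0.80 (edgeR adjusted p = 0.0129) to Postn at -1.03 ± 0.19 (edgeR adjusted p = 7.18e-05), and by RNA 3 of 9 genes were higher and 1 lower. The Postn ratio turned to 0.65 with peak length as an offset, and its call was lost without the first RMES library, at -0.97.

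Chromatin state in mESCs separated sites by their ratio. ATAC-seq, which marks accessible DNA, was available for mESCs alone, with 1 WT and 1 mCdx2-OE library, and a peak was called opened or closed where scaled reads differed more than 2-fold and summed to at least 40. The ATAC libraries shared no reads with the ChIP-seq ratio. The 44841 paired sites outside any ATAC peak had a median log2 ratio of 0.13, with 5.39% higher and 2.41% lower. The 4589 sites in opened ATAC peaks had a median of -0.72, with 0.0872% higher and 28.9% lower. The 5738 sites in other ATAC peaks, unchanged or with few reads, lay between, at -0.37 with 11.6% lower, and the 159 in closed peaks at -0.11. Every pair of an RMES with an mESC library gave this order of opened, other and outside, from -0.67 to -0.77 for opened sites and 0.11 to 0.12 outside. Seen from the called sites, 43.0% of those lower in RMES cells lay in opened ATAC peaks and 35.1% outside any, against 0.164% and 98.8% of those higher.

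The order of opened, other and outside was also seen within each quartile of strength, and the differences were smaller with peak length as an offset. The part of strength and peak length in the order was not tested. Within the weakest quartile of pairs the median was -0.43 in opened peaks (250 pairs) and 0.25 outside ATAC peaks (12644 pairs), and within the strongest quartile -0.73 (2674 pairs) and -0.01 (8856 pairs). The difference of the medians, opened minus outside, was -0.85, and it was -0.61 with peak length as an offset and -0.79 among pairs whose lengths were within 1.5 times of each other. RMES peaks without a partner lay outside mESC ATAC peaks in 97.8% of cases, and mESC peaks without a partner in 76.9%. Since no ATAC library of RMES cells was used here, accessibility of these sites in RMES cells was not tested.

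**Figure D3:**
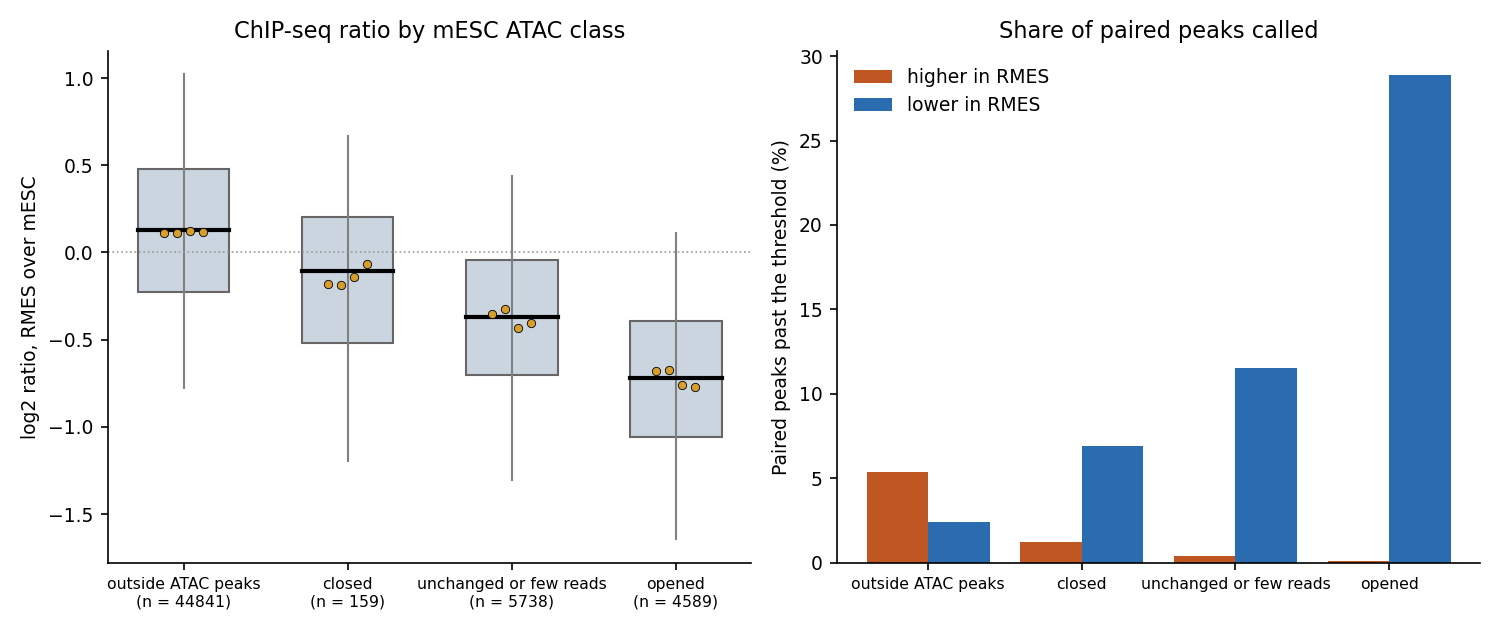
Left, log2 ratio of RMES over mESC ChIP-seq reads in paired peaks by mESC ATAC class. Boxes span the middle 50%, bars the median, lines the 5th to 95th percentile, and the 4 points the median in each pair of an RMES with an mESC library, on log2(scaled count + 1). The median falls from 0.13 outside ATAC peaks to -0.72 in opened peaks. Right, share of paired peaks called (%), which is 28.9% lower in RMES cells for opened peaks and 2.41% outside.

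Sites that were lower in RMES cells lay nearer to genes and were richer in G and C. Their median distance to the start of a protein-coding gene was 54.7 kb, against 149.2 kb for sites higher in RMES cells and 96.8 kb for all pairs. Within 1 kb of a start lay 3.96%, 1.35% and 2.93%, and 49.0%, 66.5% and 54.0% were intergenic. Median GC content of the 300-bp window was 38.7% for lower sites, 35.7% for higher sites and 35.0% for all. In the quintile of pairs richest in GC (39.7% or more) 12.23% were lower, against 3.10% to 5.05% in the other quintiles. This went with ATAC state: outside ATAC peaks the richest quintile had a median of 0.18 (5925 pairs), and inside them -0.58 (5141 pairs). The KLF motif GGGTGTG, searched on both strands like those that follow, stood in 4.97% of lower, 1.80% of higher and 2.72% of all paired sites, and in 4.87% of windows along the chromosomes. The TEAD motif GGAATGT stood in 7.99%, 4.34% and 5.62%, and in 4.07% of chromosome windows, and the octamer ATGCAAA in 9.19%, 7.69% and 7.44%, and in 7.45%. The AP-1 motif TGANTCA was nearly level, at 10.4%, 10.5% and 10.5%, beside 8.91% along the chromosomes. SOX (CATTGTT) stood in 8.64%, 10.0% and 9.17%, ESRRB (CAAGGTC) in 3.54%, 2.25% and 2.71%, and the motif of GATA factors (AGATAAG) in 4.61%, 4.91% and 4.52%, beside 5.90%, 3.88% and 4.37% along the chromosomes. The number of CDX matches went with little change, from a median of 0.05 in windows with 0 matches to -0.03 in those with 3 or more.

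Chromosomes 3 and 16 stood apart along their whole length. The 2668 pairs of chromosome 16 had a median log2 ratio of -0.36 and the 4380 of chromosome 3 -0.21, against 0.01 to 0.11 for the other 17 chromosomes. On chromosome 16, 14.3% of pairs were lower and 0.937% higher, and on chromosome 3 8.95% and 2.15%. The 4 pairs of libraries gave -0.38 to -0.35 on chromosome 16 and -0.23 to -0.20 on chromosome 3. All 10 bins of 10 Mb on chromosome 16 (-0.47 to -0.17) and all 16 on chromosome 3 (-0.43 to -0.05) had a median below 0. Peaks without a partner followed: on chromosome 16 44.6% of mESC peaks and 10.8% of RMES peaks had none, on chromosome 3 40.0% and 14.0%, and elsewhere 33.5% to 37.8% and 18.004% to 22.17%.

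The same chromosomes moved in data without RMES cells. In mESC ATAC-seq, the median log2 ratio of mCdx2-OE over WT was 0.37 on chromosome 3 and 0.23 on chromosome 16, and -0.31 to -0.13 on the others. By RNA, genes of chromosome 3 had a median log2 ratio of 0.29 and those of chromosome 16 of 0.13 in induced over WT mESCs, against -0.26 to 0.08 elsewhere. Between RMES cells and mESCs, the medians of genes on chromosomes 16 and 3 were -0.29 and -0.23 in induced cells, against -0.17 to 0.02 elsewhere, and 0.67 and 0.11 in libraries labelled WT, against -0.20 to 0.23. These contrasts share the mESC libraries with that of induced over WT mESCs. Copy number was not measured, and its part in these values was not tested. Without both chromosomes, 2047 pairs were higher and 2573 lower, and the median in opened ATAC peaks was -0.69 against 0.16 outside, on the ratios of the full test. The leading peaks of Sox2 and Postn are the named sites on chromosome 3, and none is on chromosome 16.

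**Figure D4:**
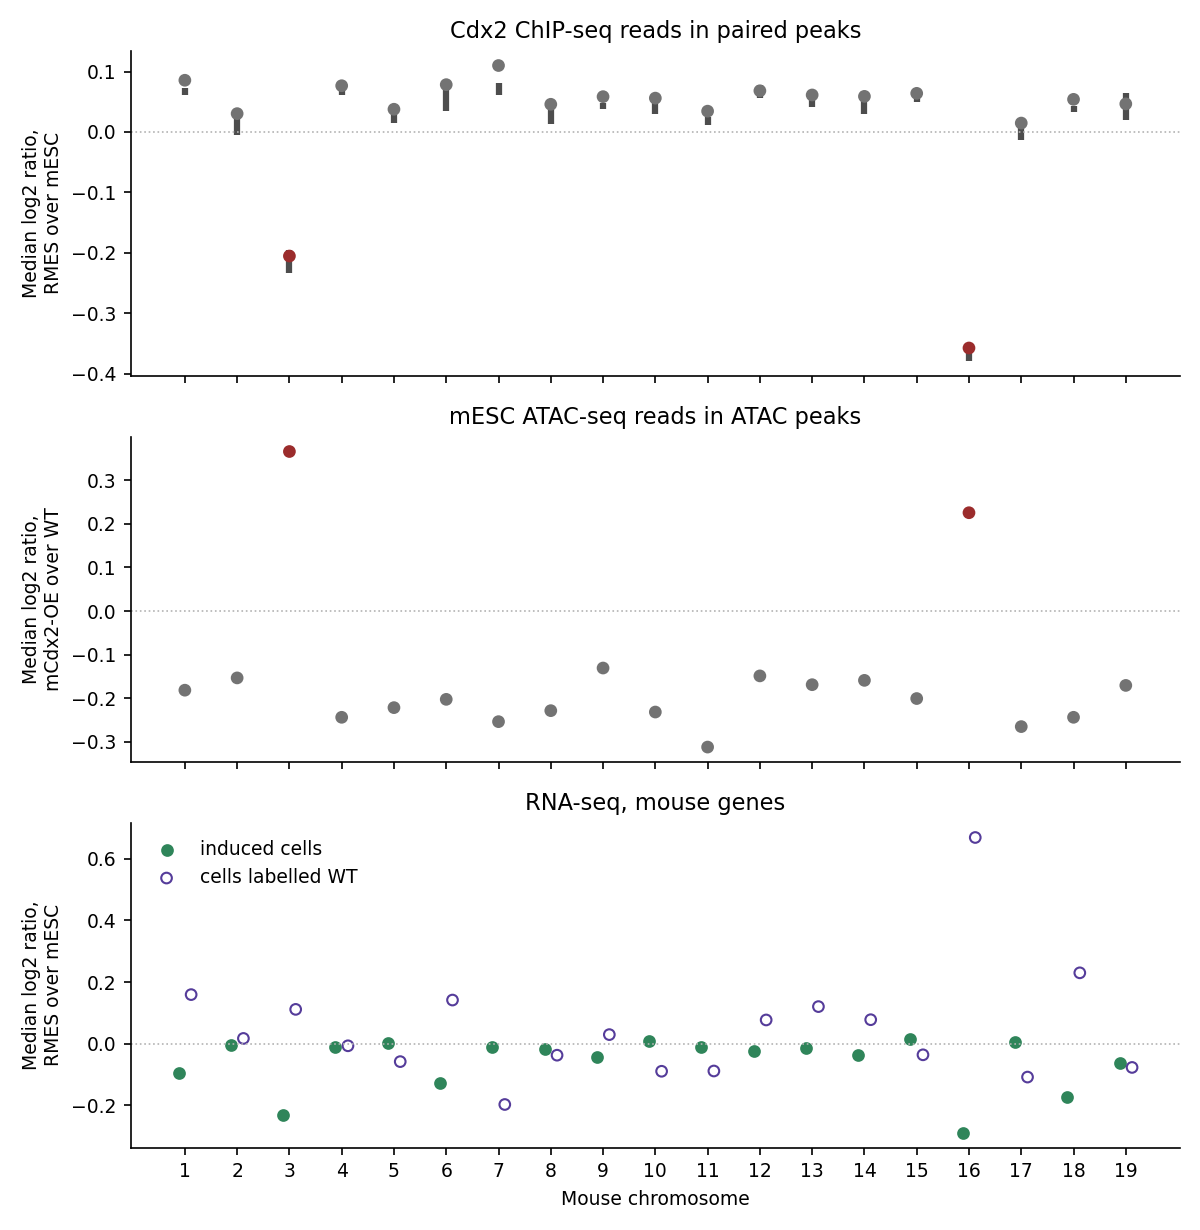
Median log2 ratio by mouse chromosome (x axis): ChIP-seq reads in paired peaks of RMES over mESCs (top; points from the edgeR fit, bars the range over 4 pairs of libraries on log2(scaled count + 1)), mESC ATAC-seq reads of mCdx2-OE over WT (middle) and RNA of RMES over mESCs in induced cells and in cells labelled WT (bottom). Chromosomes 3 and 16 lie lowest in the top panel, at -0.21 and -0.36, and highest in the middle panel, at 0.37 and 0.23.

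RNA of genes near changed sites leaned with binding in induced cells. Of 14524 tested genes on chromosomes 1 to 19, 11.7% were higher and 8.55% lower in induced RMES cells (median log2 ratio 0.01). Of 1229 genes with a lower site within 30 kb of the start and no higher one, 78 were higher (6.35%) and 142 lower (11.6%), with a median of -0.13. Of 313 genes with a higher site and no lower one, 50 were higher (15.97%) and 12 lower (3.83%), with a median of 0.18. Of 1280 genes with an RMES peak without a partner and no such mESC peak, 212 were higher (16.6%) and 86 lower (6.72%), and of 5868 genes in the opposite case 512 (8.73%) and 525 (8.95%). In libraries labelled WT, near lower sites 15.0% were higher and 16.03% lower, and near higher sites 14.1% and 15.0%, where 10.9% and 18.3% of all genes were. Of 8471 genes with any paired peak within 30 kb, 11.7% were higher and 15.2% lower in libraries labelled WT. In induced cells these were 9.88% and 8.51%. The shares lower in libraries labelled WT near both kinds of site were thus close to that of genes with any paired peak. The shares higher there, 15.0% near lower sites and 14.1% near higher sites, were both above its 11.7%. Leaving out chromosomes 3 and 16 gave 6.39% and 11.9% near lower sites and 15.1% and 4.01% near higher sites in induced cells. Whether these shares differed between induced cells and those labelled WT was not tested.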

How the data were processed

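ChIP-seq of induced mESCs and RMES cells was used with mESC ATAC-seq and RNA-seq of both cells. Per the methods, the authors trimmed reads with cutadapt 2.6, aligned ChIP-seq reads with Bowtie2 2.3.4.3, removed reads of low mapping quality and duplicates (Picard 2.6.0), gave each RMES read to the mouse (mm10) or rat (rn6) genome according to its edit distance, called peaks with MACS2 on merged libraries and filtered them by q value. RNA-seq reads were aligned with STAR 2.7.0d. All values used are read counts per peak or gene, deposited by the authors without normalisation (featureCounts, version 1.6.0 for ChIP-seq). The sources used here leave unclear whether both peak sets passed the same q-value filter. Counts in repeats and in near-identical genes are uncertain, since ambiguous reads were removed or could be split.

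Counts of paired peaks were tested with edgeR 4.0.16 (R 4.3.3, limma 3.58.1, quasi-likelihood test, TMM, filterByExpr, Benjamini-Hochberg adjustment), and DESeq2 1.42.0 was an alternative. Standard errors were derived from the log2 ratio and the F statistic. Each pair was counted over the peak of its own table. Genes were tested likewise in 1 model of 4 groups, on the mouse genome. Levels in CPM use effective library sizes, except those of Cdx2, which use total gene counts over the genomes counted. The test was tried on simulated data first. Both ATAC libraries were brought to a common total and log2 ratios taken after adding 1. Windows for motifs were 300 bp, and every 20th window along chromosomes 1 to 19 was the reference. Annotation was GENCODE M21, and a peak with its centre within 1 kb of a transcript start was called a promoter. Joins, shares and plots came from Python 3.11.15 (pandas 2.3.3, numpy 2.4.6, scipy 1.17.1, matplotlib 3.10.9).

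Named sites are the 5 largest rises and 5 largest falls past the threshold with a mean of at least 50 scaled counts and groups that did not overlap, the 3 peaks with most reads without a partner in each table, and for lists of genes the leading peaks with the highest and lowest ratio, those of the Hoxa cluster and Cdx2, and genes the study names. Leading peaks of Hoxb8 and Hoxc6, RNA values of single genes and chromosomes 3 and 16 were chosen after their values were seen. Some items that meet this rule are not reported here. Members and lists were chosen with earlier results of these data known.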

Additional observations from a re-analysis of the deposited data

Results flagged for a closer look

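RNA of RMES cells against mESCs moved one way in every induced library and the opposite way in every library labelled WT for 7 of 19 chromosomes. The same was seen for 3 of the 5 genes given above with an RNA log2 ratio. The difference between these contrasts was not tested. Median log2 ratios in induced cells and in those labelled WT were -0.29 and 0.67 on chromosome 16, -0.23 and 0.11 on chromosome 3, -0.17 and 0.23 on chromosome 18, -0.13 and 0.14 on chromosome 6, -0.10 and 0.16 on chromosome 1 and -0.044 and 0.030 on chromosome 9. On chromosome 10 they were 0.0089 and -0.089. Log2 ratios were -3.09 and 2.07 for Hoxa5, -2.99 and 8.17 for Hoxa10, and -1.44 and 2.51 for Gata6. Nanog (-0.86 and 0.18) and Postn (2.21 and -1.88), whose RNA is given above as means, also moved in opposite ways. In all, 8 of 11 Hoxa genes were below mESCs in both induced RMES libraries and above them in both labelled WT. The share of all genes that met this rule was not counted, so whether 8 of 11 is unusual cannot be told. Some of these genes had few reads, such as Hoxa2, at a mean of 0.0931 CPM in induced RMES cells and 0.0667 in WT mESCs. The libraries labelled WT held Cdx2 RNA at 241 to 247 CPM. Groups of fewer than 4 libraries, as in ChIP-seq, were not examined for single libraries that stand apart.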

How the results depend on the processing

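Against 2445 higher and 3078 lower pairs, counts were 5816 and 1437 with library sizes from all peaks and no TMM, 1310 and 1824 among the 28592 pairs with a mean of at least 50 counts, 1014 and 596 with peak length as an offset, 1144 and 1584 among 46870 pairs with lengths within 1.5 times, 7490 and 9530 with no fold limit, and 47 and 137 at a fold over 4. The share of calls that were higher was 44.3%, against 80.2% without TMM, 63.0% with the length offset and 25.5% at the 4-fold limit. DESeq2 gave 1753 and 2834 of 45673 tested. Leaving out 1 library at a time gave 2576 to 2930 higher and 3099 to 3759 lower, the lone library of a group being assumed to vary like the others. Shares of mESC and RMES peaks without a partner were 34.4% and 18.5% with gaps of up to 500 bp allowed, 27.7% and 27.2% for the 40000 strongest of each, 22.2% and 34.3% for at least 50 scaled reads, 35.2% and 19.9% with chromosome X, and, chosen after seeing the data, 15.99% and 7.08% for the 40000 strongest against all of the other table. The difference of medians between opened ATAC peaks and sites outside (-0.85) was -0.77, -0.61 and -0.79 under the mean of 50, the length offset and the length limit, and that of other ATAC peaks (-0.50) was -0.44 and -0.32 under the first 2. Chromosome 16 minus the other 17 chromosomes (-0.42) was -0.39, -0.26, -0.37 and, with 50% overlap of both peaks, -0.39. Chromosome 3 minus the others (-0.27) was -0.29 with DESeq2, -0.29, -0.15 and -0.22, and -0.29 to -0.24 leaving out 1 library at a time. The Postn peak reversed under the length offset, at 0.65. Of 582 values for 39 peaks that meet the naming rule, 545 kept their direction and side of the threshold, 17 lost and 19 gained the call. Causes were not tested, beyond fewer pairs tested or another limit.

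The replicate block, pairing libraries by column name, gave 2442 higher and 3069 lower pairs. Deviations of same-named libraries correlated at r = 0.13 over the pairs, with only 2 pairs of libraries, so the names were not taken as pairing. For RNA the block gave 2071 higher and 1630 lower genes in induced cells, and 2119 and 3308 in those labelled WT, all within 1.5 times of the fit without it.

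Sites near 28 reads, the fewest of any peak, have wide counting error. Differences in level below the replicate spread were not detectable with 2 libraries a group.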
